A study of Gallus gallus with 2 samples.

Results

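The muscle and heart regulator genes examined here are 8 transcription factor genes, MYF5, MYF6, MYOD1, MYOG, MEF2C, GATA4, GATA5 and GATA6. They were chosen by name, with earlier results of these data known, and every probe set whose platform gene symbol matched one of them was taken. The array carries 11 such probe sets among 37693 chicken probe sets, and the 8 genes are part of the 13008 genes that could be named. MEF2C has several probe sets, as has GATA5, and the other 6 genes have 1 each. The differences between the arrays in these genes were known when the genes were chosen, so every ratio below describes 2 arrays and none was tested.

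MYF5, MYOD1, MYOG and MYF6 form the family of myogenic regulatory factors, basic helix-loop-helix proteins that bind E-box DNA together with E proteins and switch on muscle genes. MYF5 and MYOD1 commit cells of the somite to skeletal muscle, and MYOG and MYF6 act mainly in the differentiation that follows. MEF2C is a MADS-box factor that works with them in skeletal muscle and with GATA factors in the heart. GATA4, GATA5 and GATA6 are zinc finger factors of the heart and of the gut endoderm. The neural tube is not a tissue in which these genes are usually prominent; somites, heart field and endoderm lie close to it in the embryo.

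Each group was 1 array. The control array holds RNA of GFP-positive cells sorted from the neural tube of chicken embryos (Gallus gallus) that were electroporated with the empty vector pSuper-neo-GFP. The knockdown array holds RNA of GFP-positive neural tube cells that had received 2 plasmids of the same vector, one with a short hairpin RNA against Sox4 and the other with one against Sox11. In both groups, per the labels, electroporation was at Hamburger-Hamilton stage (HH) 9 and harvest at HH 11 after 2 days, statements that do not obviously go together. How many embryos went into an array is not stated in the labels, and the 2 groups share the vector, the GFP reporter and the sort. In sorted bulk cells, fewer cells of a type and less RNA per cell cannot be told apart.

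The values are MAS5 signals, linear intensities that the authors scaled to an equal trimmed mean (1000.3 for control and 1000.2 for knockdown). Background was set by 687 probe sets for viral sequences without a chicken gene, as their 95th percentile, which was 63.6 for the control and 65.8 for the knockdown array. All 12 matched markers of neural progenitors, the labelled tissue, lay above background on both arrays, with SOX1 at 2475 and 1456, SOX2 at 1581 and 2675 and NES at 16254 and 12422 in control and knockdown cells. The targeted genes were lower on the knockdown array, SOX4 by a log2 ratio of -1.06 and SOX11 by -0.71. The arrays also differed in labelled RNA, since signal at the 3' end of the actin transcript was 5.45 times that at its 5' end in control cells and 1.85 times in knockdown cells. This ratio was 2.92 and 1.5 for EF1A, and 1.25 and 1.05 for GAPDH. The part of this difference in the ratios below was not tested.

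The 8 genes had signals between 8.0 and 607.1. On the control array 4 of the 8 lay above background, namely MYF5, MYOD1, MEF2C and GATA5. On the knockdown array all 8 did, though GATA4 by a small margin. Over all 13008 genes, 81.3% lay above background in the control and 83.3% in the knockdown. As deposited, 6 of the 8 genes had at least 2-fold higher signal on the knockdown array and 0 had at least 2-fold lower signal, where 9.99% and 5.01% of all genes did. Control signals of 4 of the 6 lay below background. Among the viral probe sets, which set that background, 28.1% were at least 2-fold higher and 29.3% lower as deposited. With signals below background raised to background, 5 of the 8 were at least 2-fold higher and 0 lower, where 3.76% and 1.09% of all genes were. MYOD1 and MEF2C went the other way, with lower signal on the knockdown array.

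**Figure D1:**
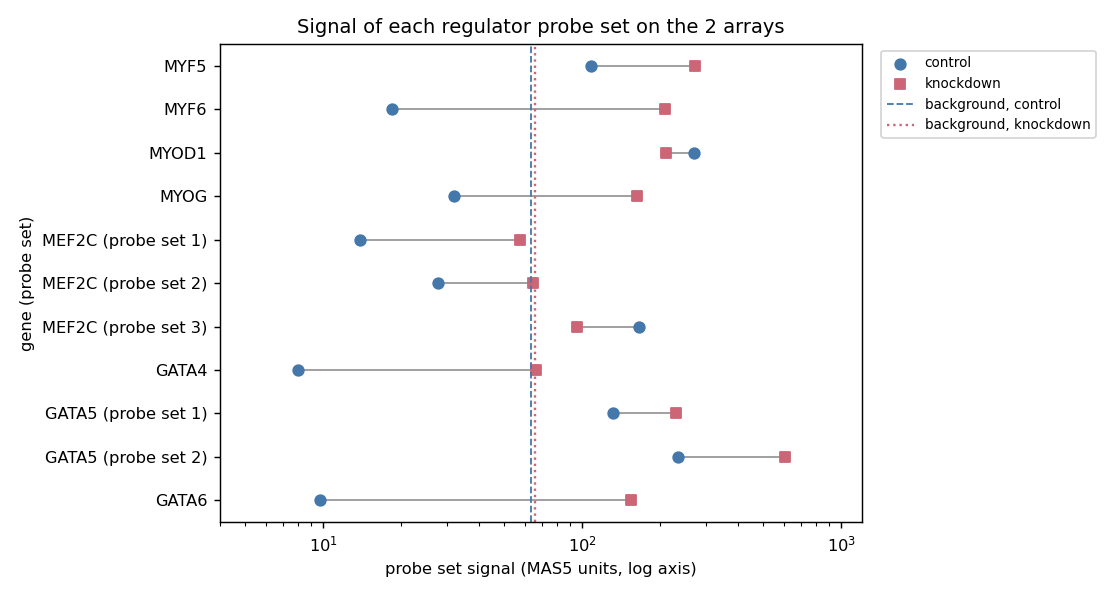
Signal of each of the 11 probe sets (rows) on the control array (circles) and the knockdown array (squares), on a log axis in MAS5 units, with the background of each array as a vertical line. MYF6, MYOG and GATA6 cross from below background to between 154.8 and 208.5, GATA4 ends at background, and MYOD1 and the third probe set of MEF2C run the other way.

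MYF5, the first of the family to be switched on in the somite, gave 107.9 in control cells and 271.6 in knockdown cells. It was above background on both, and the log2 ratio was 1.33, a 2.52-fold difference (0.98 with the background added to both signals). MYOD1, the other factor of commitment, gave 269.8 and 209.9, a log2 ratio of -0.36. The factors of commitment thus had log2 ratios of opposite sign, each from signals above background on both arrays. Log2 ratios of probe sets of the same gene, at signals of 166 to 242, had a standard deviation of 0.54. The log2 ratio of MYOD1 lies within that spread, which is one between probe sets and not between arrays. With 1 array per group and 1 probe set, the direction of MYOD1 is not settled. Of 1296 genes above background whose mean log2 signal lay within 0.5 of that of MYF5, 9.88% were at least 2-fold higher. A log2 ratio at or above that of MYF5 was found in 3.86% of them. For MYOD1, 13.2% of 1239 such genes had a log2 ratio at or below its own.

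MYOG, myogenin, which acts as muscle cells differentiate, gave 31.9 in control cells, below background, and 162.2 in knockdown cells. A fold can then be given only as a bound, and MYOG was at least 2.55-fold higher. MYF6, also called MRF4, gave 18.4 and 208.5, at least 3.28-fold higher in the same way. With background at the 99th percentile of viral probe sets, the bounded log2 ratios were only 0.46 for MYOG and 0.82 for MYF6, both less than 2-fold. On the control array 147 of the 687 viral probe sets were at or above MYOG and 260 at or above MYF6, so those signals are inside the background. On the knockdown array 3 viral probe sets were at or above each of them, and 0 viral probe sets moved from at or below background in the control to the level of either gene. Ratios of the deposited signals, 2.35 for MYOG and 3.50 for MYF6 on the log2 scale, depend on values inside the background and are not fold changes that can be read. Of the 4 myogenic genes 3 were at least 2-fold higher by these bounds, with a median log2 ratio of 1.34 (1.84 as deposited), against 0.05 over all genes on either scale. With signals raised to background, 0.05 is also the log2 ratio that any gene below background on both arrays takes, from the backgrounds alone.

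GATA5 acts in the early heart field and endoderm. The brighter of its probe sets gave 233.6 in control cells and 607.1 in knockdown cells, a log2 ratio of 1.38 or 2.60-fold. A second probe set, designed from another transcript sequence, had 131.3 and 231.3, a log2 ratio of 0.82. Both probe sets lay above background on both arrays and both were higher on the knockdown array, the dimmer one by 1.76-fold. Of 1163 genes of like signal to the brighter probe set, 6.45% were at least 2-fold higher and 2.24% had a log2 ratio at or above that of GATA5.

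GATA6, a factor of heart and endoderm, gave 9.7 in control cells and 154.8 in knockdown cells, at least 2.43-fold higher. GATA4, which is needed for the heart tube to form, had 8.0 and 66.2. On the knockdown array GATA4 stood just above the threshold of 65.8, with 34 of the 687 viral probe sets at or above its signal. The bound was 1.04-fold. Of 652 viral probe sets at or below background in the control, 20 reached the level of GATA4 in the knockdown and 0 that of GATA6. The deposited signals of GATA4 differ by a log2 ratio of 3.05, but the lower one is inside the background and the higher one at its edge. Of the 3 GATA genes 2 were at least 2-fold higher when bounded at background, with a median log2 ratio of 1.28 (3.05 as deposited).

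MEF2C gave signals that disagreed between probe sets. The probe set with the highest signal gave 165.9 in control cells and 95.6 in knockdown cells, a log2 ratio of -0.80 or 1.74-fold lower. The other 2 probe sets, which come from the same transcript sequence as each other, had 13.9 and 57.8 in the first case and 27.8 and 64.6 in the second. Neither of them exceeded background on either array, and the second fell just below the knockdown threshold of 65.8. They thus give no fold, and a direction for MEF2C rests on 1 probe set. Its log2 ratio passed 2-fold with quantile normalization (-1.04) and loess centring (-1.03), and it turned to 0.83 with the mean of all 3 probe sets. Of genes with a signal like that of its brightest probe set, 2.16% were at least 2-fold lower and 4.98% had a log2 ratio at or below that of MEF2C.

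**Figure D2:**
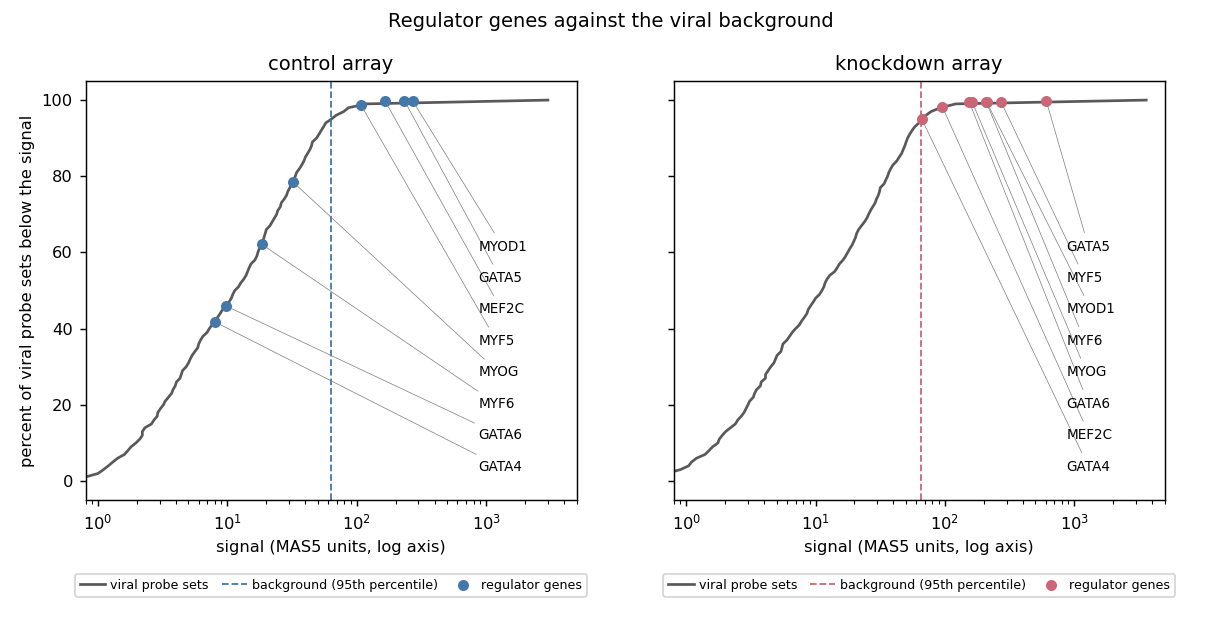
Share of viral probe sets (vertical axis, percent) with a signal below the value on the horizontal axis (MAS5 units, log axis), for the control array on the left and the knockdown array on the right, with the 8 genes as points. In the control, GATA4, GATA6, MYF6 and MYOG lie inside the viral distribution; in the knockdown, GATA4 lies at its 95th percentile and the other 7 genes above it.

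Of the myogenic genes 2 of 4 lay above background in the control, and of the GATA genes 1 of 3; all members of both groups lay above it in the knockdown. The bounds were 3.28-fold for MYF6 and 2.55-fold for MYOG against 2.43-fold for GATA6 and 1.04-fold for GATA4. Bounded at background, the medians were 1.34 and 1.28 on the log2 scale; they contain bounds, so their order is open. As deposited, the medians were 1.84 and 3.05, a gap made by control signals of 8.0 to 31.9 that lie inside the background. The summed signal was 428 and 852 for the 4 myogenic genes and 251 and 828 for the 3 GATA genes. Both GATA sums and the myogenic sum of the control rest largely on single genes. GATA5 made up 233.6 and 607.1 of the GATA sums, and MYOD1 63.0% and 24.6% of the myogenic sums. In the knockdown the myogenic signals were closer together, from 162.2 for MYOG to 271.6 for MYF5.

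Genes that lay at or below background in the control often appeared above it in the knockdown. Of 2438 such genes 27.5% did so, and 5.05% were at least 2-fold above background by the bound, as 3 of the 4 regulator genes in that position were (MYF6, MYOG and GATA6). In the other direction, 18.5% of 2168 genes at or below background in the knockdown were above it in the control, and 1.34% by at least 2-fold. Among genes above background on both arrays, 3.6% were at least 2-fold higher, as were MYF5 and GATA5, and 1.11% at least 2-fold lower.

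**Figure D3:**
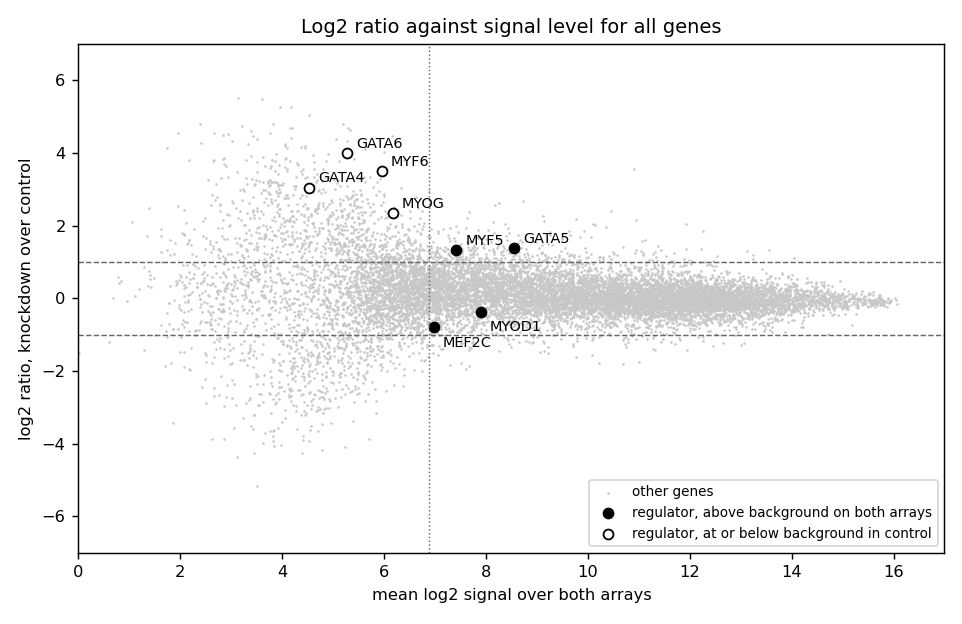
Log2 ratio of knockdown over control (vertical axis) against mean log2 signal over both arrays (horizontal axis) for 13008 genes (grey), with the 8 regulator genes in black; open circles were at or below background in the control. Dashed lines mark 2-fold and the dotted line the median signal of chicken probe sets, 118. The open circles lie in the dim range where log2 ratios of all genes spread widely.

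MYF5 and MYF6 are next to each other in the chicken genome, as the order of genes in RefSeq's assembly GRCg7b shows, and both were higher on the knockdown array. Their outer neighbours differed less, with LIN7A beside MYF5 at a log2 ratio of 0.60 and PTPRQ beside MYF6 at 0.24. Both neighbours were dim, above background but below the median signal of chicken probe sets, and MYF6 itself has only a bound. MIB1 and RBBP8 beside GATA6 were at -0.41 and 0.19, and SLCO4A1 beside GATA5 was at -1.34, against 1.38 for GATA5 itself. PPFIA4 and ADORA1 beside MYOG were at -0.32 and 0.04. FTL beside MYOD1 was at 0.12, and KCNC1 on its other side fell below background, from 96.1 to 45.3. CETN3 beside MEF2C was at 0.12, and BLK and NEIL2 beside GATA4 lay below background on both arrays. By distance in log2 signal over the 2 arrays, the measured genes closest to MYF5 were CASQ2, PRR15L and VANGL2, and those closest to GATA5 were GNPTG, CSRP3 and RAB40C. MYOD1 lay closest to CALB2, HSBP1L1 and MCEE, and MEF2C to ACER2, SH3BP2 and SYN2, which says no more than that their signals were alike on 2 arrays.

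For the genes around these regulators, a gene was called measured when its mean signal reached the median of chicken probe sets, 118, and 9303 genes were. Of measured genes 3.64% were at least 2-fold higher on the knockdown array and 1.06% lower, with a median log2 ratio of 0.02. Among all such calls 77.4% were higher, a share that came to 62.9% with median centring, 57.6% with loess centring and 55.5% with quantile normalization. The median log2 ratio over chicken probe sets was 0.10, which median centring takes away.

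Contractile and other effector genes of skeletal muscle were higher on the knockdown array as a list, with 11 of 19 measured genes at least 2-fold higher and 0 lower, and a median log2 ratio of 1.10. That median was 0.69 over all 32 matched genes with signals raised to background, 0.37 with the filter at the 75th percentile and 1.74 with the dimmest probe set of each gene. ACTC1, the cardiac alpha-actin that embryonic skeletal muscle also makes, went from 559.4 to 6647, and ACTA1, the skeletal alpha-actin, from 562.1 to 2258. The myosin genes MYL1 and MYH15 had log2 ratios of 2.69 and 2.26. Of the troponin genes, which make the calcium switch of the thin filament, TNNC2 stood at 2.12, TNNC1 at 1.96, TNNI2 at 1.10 and TNNT3 at 1.08. ACTN2, the alpha-actinin of the Z-disc, was at 1.45, with its other probe set at 1.52. The muscle filament gene DES stood at 1.34, and SMYD1, a methyltransferase of striated muscle, at 1.21. NEB, the giant thin filament protein nebulin, and named after its values were seen, was the 1 measured gene of the list below 0, at -0.23, although another of its probe sets gave 0.77. All 11 genes past 2-fold lay above background on both arrays.

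Effector genes of heart muscle share ACTC1, MYH15, TNNC1 and TNNI1 with that list. At least 2-fold higher were 8 of its 15 measured genes, and 0 were at least 2-fold lower, with a median log2 ratio of 1.01. Of the 15 genes 12 lay above 0 and 3 below. MYL2 is among the 8 although it counts as measured through its knockdown signal alone. The median was 0.40 over all 24 matched genes with signals raised to background, 0.63 without a filter and 1.75 with the dimmest probe set. TNNT2, cardiac troponin T, went from 333.7 to 1121, and the myosin light chain gene MYL3 from 88.6 to 461. MYL2, the ventricular regulatory light chain, was below background on the control array at 42.8 and had 329.1 on the knockdown array, at least 5.18-fold higher. CSRP3, a muscle LIM protein, had a log2 ratio of 1.23 and ANKRD1, a stretch-responsive repeat protein, of 1.01. MYL4, an atrial light chain of the embryo, had 7829 and 11882 (log2 ratio 0.60) and is named here after its values were seen. POPDC2, named in the same way, was at -0.78, although its other probe set gave 0.26. MYH7, also named after its values were seen, had 71.3 in the control and 10.9, below background, in the knockdown. Its control signal was only 1.08 times the background of the knockdown array, so it was at least 1.08-fold lower.

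**Figure D4:**
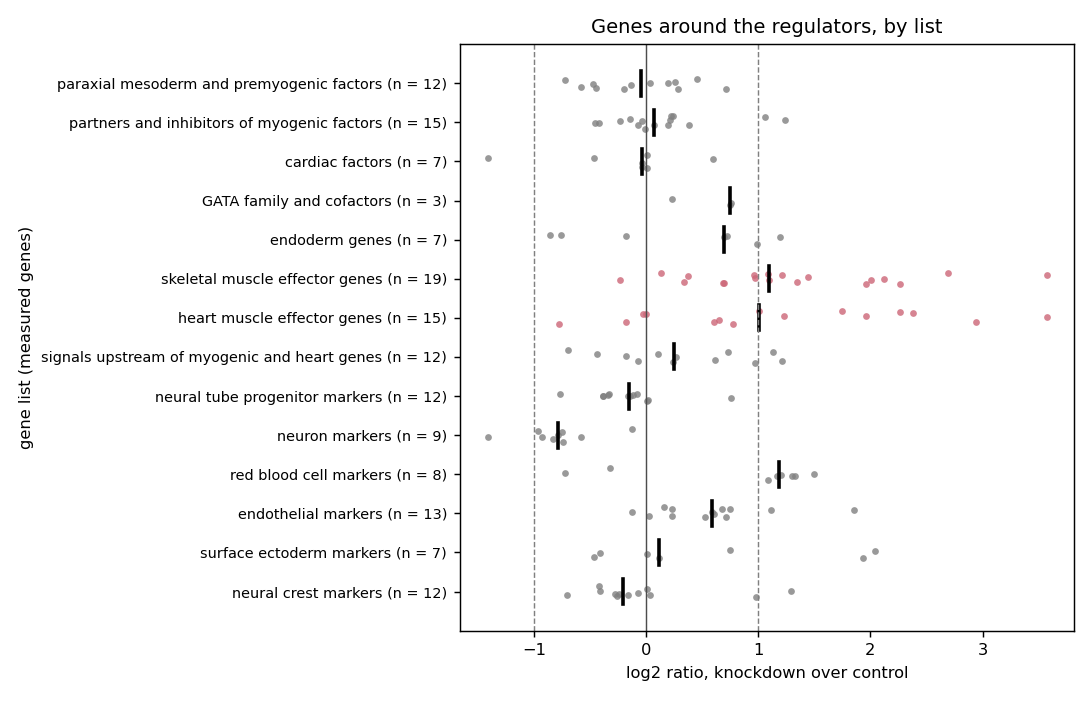
Log2 ratio of knockdown over control (horizontal axis) of the measured genes of 14 lists (rows), each point a gene and each bar the median of the list; dashed lines mark 2-fold, and the muscle effector lists are coloured. Skeletal and heart effectors have medians of 1.10 and 1.01. Over the settings tried these ran from 0.37 to 1.74 and from 0.40 to 1.75. The 0.40 is over all 24 matched genes with signals raised to background. The lists of premyogenic and cardiac factors have medians of -0.05 and -0.03, whose sign changes with the filter on low signal. The cardiac median covers only 7 of 20 matched genes. No probe set of 10 of the 20 lay above background on either array.

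By the probe sets of highest signal, factors that act before or beside the myogenic genes did not show that shift. Of 12 measured paraxial mesoderm and premyogenic factors, 0 were 2-fold higher or lower, 6 lay above 0 and 6 below, and the median log2 ratio was -0.05. PAX3, which acts upstream of MYF5 and MYOD1 and is also made in the dorsal neural tube, had 181 and 296.6 (log2 ratio 0.71). Its relative PAX7 was at -0.58 and FOXC2, a factor of the somite, at -0.73. TCF15, which marks the epithelial somite, is named after its values were seen: its brighter probe set gave 0.28, and its other probe set had 112.4 and 9.3, the latter below background. Of 15 measured partners and inhibitors of the myogenic factors, 2 were at least 2-fold higher and 0 lower. Their median was 0.07, and 0.27 with the mean of all probe sets of a gene. These 2 were ID3, which sequesters E proteins, at a log2 ratio of 1.24 and MDFI, an inhibitor of the MyoD family, at 1.06. The E protein gene TCF3 was at -0.45. The MEF2 relatives MEF2A and MEF2D, chosen once their values were known, were at -0.07 and -0.01 by the probe sets of highest signal. Their other probe sets above background on both arrays differed from these, with 0.59 and 0.82 for MEF2A and 0.07 and 0.43 for MEF2D. TCF12 and ID2, of the same list and named after their values were seen, were at -0.14 and 0.07 by the probe sets of highest signal. Other probe sets above background on both arrays gave 0.88, 1.22 and 1.23 for TCF12 and 0.42, 0.46 and 1.71 for ID2.

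Of 20 matched cardiac transcription factor genes, 10 had no probe set above background on either array, among them NKX2-5, TBX20 and HAND1, named after their values were seen. TBX5, named in the same way, had 1 probe set at 102 in the control and 9.4, below background, in the knockdown, and 2 below background on both arrays. Of 7 measured genes 0 were 2-fold higher and 1 lower, with a median log2 ratio of -0.03. That 1 was ISL1, which marks the second heart field and also spinal motor neurons, at -1.41, and which is also among the neuron markers here. The median leaves out the genes not measured, among them NKX2-5, TBX5, TBX20 and HAND1. TCF21, a factor of the epicardium, was at 0.59 and the Iroquois gene IRX1 at -0.47. HAND2, also named after its values were seen, crossed background, from 48.3 to 105.3, at least 1.66-fold higher. Of the GATA family and its cofactors, 0 of 3 measured genes passed 2-fold: ZFPM2, the GATA4 cofactor, at 0.75, GATAD2A at 0.76 and LMO2 at 0.23. A further probe set gave -0.59 for ZFPM2 and 0.01 for GATAD2A, so that neither has a settled direction. GATA2 and GATA3, of the blood, ectoderm and neural branch of the family, likewise named after their values were seen, had signals of 51.9 and 73.2 in the control and 69.3 and 119.5 in the knockdown.

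Endoderm genes were mixed. Of 7 measured genes 1 was at least 2-fold higher and 0 lower, with a median log2 ratio of 0.70, 4 genes above 0 and 3 below. Averaging all probe sets of a gene gave a median of 0.40, and quantile normalization 0.45. Over all 17 matched genes with signals raised to background the median was 0.05. That is the value of a gene below background on both arrays, set by the backgrounds and not a measured shift. APOA1, an apolipoprotein of the yolk sac and liver, was the 1, at 1.20. HHEX, a factor of anterior endoderm that blood vessels also make, was at 0.99, and CDX2, a factor of hindgut and tail bud, at -0.86. Of the 17 matched genes 7 had no probe set above background on either array.

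Markers of other cell types moved on the same arrays, and their part in the ratios of the regulators was not tested. Of 8 measured red blood cell markers 6 passed 2-fold upward and 0 passed it downward. The 6 ran from the globin gene HBBR at a log2 ratio of 1.08 to the anion exchanger gene SLC4A1 at 1.49. The other 2 lay below 0, TFRC at -0.32 and ANK1 at -0.73, both named after their values were seen. Further probe sets of ANK1 above background on both arrays gave -0.24 and 0.02. The summed signal of 10 matched markers was 36458 in the control and 76004 in the knockdown. Endothelial markers had 2 of 13 at least 2-fold higher, CDH5 (log2 ratio 1.86) and TEK (1.11), with KDR at 0.75 and a summed signal over 15 matched genes of 4107 and 6077. For surface ectoderm 2 of 7 were at least 2-fold higher, KRT7 and ESRP2 (log2 ratios of 2.04 and 1.93), with CDH1 at 0.75. Of these 7 genes 5 lay above 0 and 2 below, with a median of 0.11 and sums of 5879 and 8220 over 12 matched genes. Neural crest markers had 1 of 12 at least 2-fold higher, SNAI2 at 1.29, with MSX2 at 0.98 and ETS1 at -0.70. Further probe sets of ETS1 above background on both arrays gave 0.18 and -1.49. Of the 12 crest markers 4 lay above 0 and 8 below, with a median of -0.20 and sums of 23492 and 23473. Neuron markers were lower, with 9 of 9 measured genes below 0, a median of -0.78 and sums of 120378 and 83057 over 10 matched genes. The 1 measured gene at least 2-fold lower was ISL1, at -1.41, which is also in the cardiac factor list. The neuronal tubulin gene TUBB3 was at -0.97 and the RNA-binding protein gene ELAVL4 at -0.93. Of the 12 progenitor markers 9 lay below 0 and 3 above, with a median of -0.15, sums of 199196 and 177474, and log2 ratios of -0.77 for SOX1, 0.76 for SOX2 and -0.39 for NES. The skeletal and heart effector lists had sums of 30891 and 51806 over 32 genes and 19824 and 36118 over 24 genes. ACTC1, MYH15, TNNC1 and TNNI1 count in both sums. Each sum is weighted to its brightest genes, such as TPM1 (named after its values were seen) at 14814 and 19185 and MYL4 at 7829 and 11882. The probe set of TPM1 in the sum had a log2 ratio of 0.37. Its other probe sets, all above background on both arrays, ran from 0.20 to 2.18.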

How the data were processed

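RNA of 1 control and 1 knockdown sample was measured on an Affymetrix chicken array after biotin labelling of 100 ng RNA, per the labels' protocols. The deposited values are linear signal intensities per probe set, made by the authors with MAS5 5.0, per the submitters' processing notes; they were used as deposited and log2 was taken from them. Detection calls were not used here. Symbols came from the platform annotation, updated through Entrez numbers with RefSeq's table for GRCg7b; 27166 chicken probe sets had 1 symbol, 177 several and 10350 none. The probe set of highest mean log2 signal stood for a gene. For a gene not above background in the control only, the bound is the knockdown signal over the control's background.

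With 1 array per group no test was made, and the number of arrays limits every value. Members, gene lists and alternatives were chosen with earlier results of these data known. Named were all 8 regulators and, in each of 14 lists, the measured genes past 2-fold or, with fewer than 3 of those, the 3 with the largest log2 ratios, except the globin genes HBZ, HBA1, HBAD and HBE, which stand as a range; other genes are marked as named after their values were seen. For each regulator above background on both arrays, the 3 closest genes were named. Ratios and scalings were tested on simulated data. No sequences are shown. Python 3.11.15, pandas 2.3.3 and statsmodels 0.14.6 were used.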

Additional observations from a re-analysis of the deposited data

How the results depend on the processing

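The count of regulators at least 2-fold higher, 6 as deposited, ran from 4 to 6 with the other scalings, probe set rules and treatments of background at its 90th and 95th percentiles. It was 2 (MYF5 and GATA5) with background at the 99th percentile of viral probe sets, and 2 over measured regulators only, an alternative chosen after seeing the data. The count at least 2-fold lower was 1 (MEF2C) with quantile normalization and 1 with loess centring. The myogenic median log2 ratio, 1.84, became 1.34 with signals raised to background, 1.12 with background added, 0.64 and 1.53 with background at the 99th and 90th percentiles, and 0.48 over measured genes. The GATA median, 3.05, became 1.28, 1.18, 0.39, 1.38 and 1.38 in that order. MYF5 kept a log2 ratio of 0.98 to 1.33, GATA5 0.82 to 1.38 and MYOD1 -0.61 to -0.27. MEF2C turned to 0.83 with the mean of its probe sets, of which 2 lie below background. Regulators above background were 3 and 6 on the control and knockdown arrays at the 99th percentile, against 4 and 8.

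Over measured genes, 339 higher and 99 lower became 256 and 151 with median centring, 208 and 167 with quantile normalization, 220 and 162 with loess centring, and 195 and 60 with background added. They were 522 and 74 with the dimmest probe set, 1300 and 652 without a filter, and 71 and 46 with the filter at the 75th percentile, which leaves no regulator. Of 165 alternative list medians 7 changed sign, all in the premyogenic, partner, cardiac factor and neural crest lists. The medians of the effector and endoderm lists stayed above 0, with the ranges given beside them. The median of the GATA family and cofactors, 0.75, was 0.01 with the dimmest probe set, and that of upstream signals, 0.25, was 0.73. No paired analysis was possible because each group has 1 array, and for the same reason no replicate could be left out. Signal over background is a limit too: 4 of the 8 regulators have only an upper bound on their control level.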

Other observations

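Signals known to act on myogenic and heart genes were mixed between the arrays. On the knockdown array 2 of 12 measured genes were at least 2-fold higher and 0 were lower, with a median log2 ratio of 0.25. They were SHH, made by notochord and floor plate and needed for MYF5 in the somite, with 282 and 653.1 (log2 ratio 1.21), and WNT1, made by the dorsal neural tube, with 131.7 and 288.9 (log2 ratio 1.13). FSTL1, a secreted follistatin-like protein, was at 0.97, and its further probe sets above background on both arrays gave 0.91 and -0.07. The BMP antagonists NOG and CHRD, named after their values were seen, were at -0.70 and -0.44. FGF8 and FGF4, also named after their values were seen, crossed background, FGF8 from 51.4 to 135.5 and FGF4 from 13.3 to 113.4. Their control signals lie inside the background, and the bounds were 2.13-fold for FGF8 and 1.78-fold for FGF4.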
